A study of Mus musculus with 18 samples.

Results

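The major urinary protein (Mup) genes described here are 10 of the 22 protein-coding genes with a Mup symbol in the mouse: Mup1, Mup2, Mup3, Mup5, Mup7, Mup11, Mup15, Mup18, Mup20 and Mup21. They were taken by symbol from the table of counts of the livers, where they are 10 of 55291 gene rows, and all 10 had at least 2 counts over the livers. The 10 were selected on the CPM values of these same livers, with the difference of HET from WT known, so their levels and differences are a description and carry no p-value. The study measured RNA in pancreas and liver of mice with and without a working Otub2 gene, which encodes a deubiquitinase. The liver samples are 2 wild-type samples (labelled OTUB2 +/+, here WT 1 and WT 2) and 5 heterozygous samples (OTUB2 +/-, here HET 1 to HET 5), from mice kept in normal conditions with no treatment stated. The sources used here do not give the strain, the age or the sex of the liver donors, the part of Otub2 that was deleted, or whether each sample is a separate animal. If some samples share an animal, the errors below measure only the spread between samples.

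Major urinary proteins are small secreted lipocalins, barrel-shaped carriers that bind volatile pheromones. Hepatocytes make most of them, and they leave the blood through the kidney into the urine, where they carry scent signals of identity, sex and rank. In mouse liver they belong to the most abundant transcripts, are higher in males than in females, and are driven by the pulsed release of growth hormone acting through STAT5b, with thyroid hormone, glucocorticoids and feeding state also acting on them. The genes stand side by side in a cluster whose central copies are nearly identical, while copies towards the ends are more divergent.

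The 7 liver libraries held 155201 (WT 1) to 1686234 (HET 5) counts, a mean of 248905 ± 132517 in WT (SD, n = 2) and 733150 ± 557467 in HET (SD, n = 5). RNA was counted at the 3′ ends of transcripts, so levels of different genes can be compared without a correction for length. Values are CPM, the counts of a gene per 1000000 counts of its library, and 3 counts correspond to 19.3 CPM in WT 1 and 1.78 CPM in HET 5. Otub2 itself gave 1 count in WT 1, 0 in WT 2 and 0 to 2 in the HET livers, too few to check the labels. Albumin (Alb), the defining hepatocyte transcript, had 26746 and 18984 CPM in WT and 33895, 28538, 12331, 11112 and 27811 CPM in HET 1 to HET 5, lowest in HET 3 and HET 4. The mean rank correlation of a liver with the other 6 was 0.776 (WT 1) to 0.83 (HET 2) over 4803 genes, which are not independent replicates.

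All 10 genes lie on chromosome 4 of mm10 between positions 60066469 and 62150863, on the minus strand, and none overlaps another annotated gene in GENCODE release M21. Mup7 (60066469 to 60070475) stands at one end, followed by Mup2 (60135932 to 60154289), Mup1 (60498012 to 60501960), Mup11 (60658466 to 60662411), Mup15 (61435790 to 61439743) and Mup18 (61670177 to 61674136). Mup5 (61831319 to 61835233), Mup20 (62050234 to 62054158), Mup3 (62083476 to 62087342) and Mup21 (62147932 to 62150863) make up the other end. Between and beside them stand the other 12 protein-coding Mup genes. Likeness went by groups of members along the chromosome and not by a strict order. The longest transcripts of Mup1, Mup2, Mup7, Mup11, Mup15 and Mup18 were 98.8% to 99.6% identical over aligned bases. Mup5 was 87.1% to 90.3% identical to the other 9, and Mup20 88.6% to 91.2%. Mup3 and Mup21, neighbours at the far end, shared 96.1% with each other.

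Near-identical copies matter for every value below, because a 3′ read that fits several genes may be given to one of them, split or dropped, and the sources used here do not say which was done. In the last 300 bases of each transcript, the share of 50-base words found in no other gene was 93.6% in Mup3, 91.2% in Mup20, 82.1% in Mup21, 64.5% in Mup5, 38.6% in Mup11 and 19.9% in Mup18. It was 0% in Mup1, Mup2, Mup7 and Mup15. Counts of Mup3, Mup20, Mup21 and Mup5 can therefore be assigned to their gene most readily, and counts of the other 6 are uncertain between copies. Among the 4 members with no such word, Mup15 nevertheless held 514 counts over the 7 livers, Mup7 72, Mup2 3 and Mup1 2, so the authors' counting did give some of these genes reads. The sum over the 10 is printed beside single genes for this reason. Reads that moved between a member and 1 of the other 12 Mup genes would still change it.

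**Figure D1:**
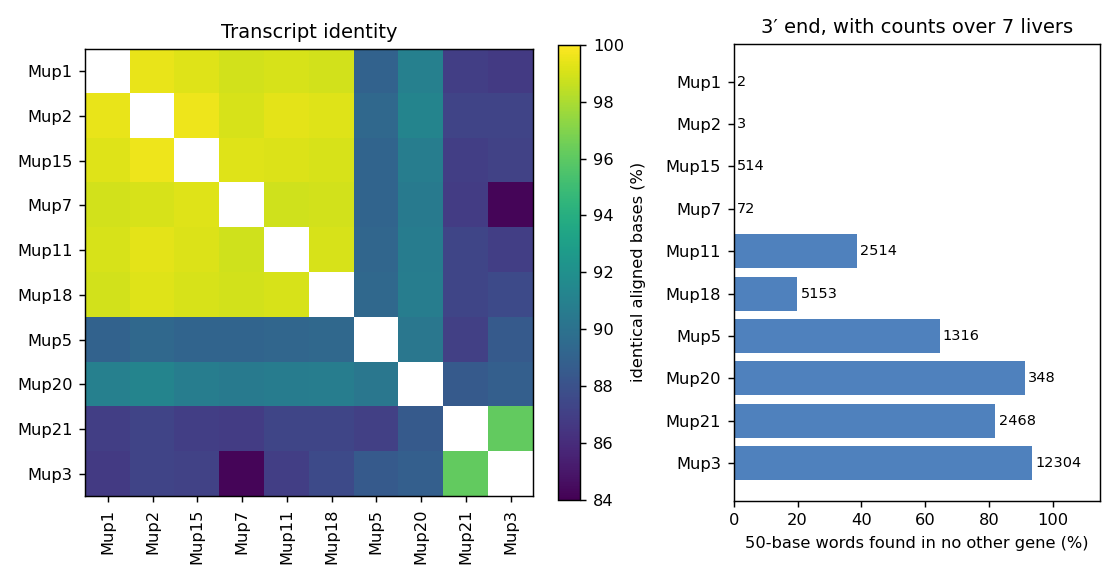
Left, percent identical aligned bases between the longest transcripts of the 10 members (colour scale 84% to 100%); right, percent of 50-base words in the last 300 bases of each transcript that occur in no other gene, with the member's counts over the 7 livers beside each bar. Mup1, Mup2, Mup15, Mup7, Mup11 and Mup18 form a block of at least 98.8% identity, and the first 4 of them have no word of their own.

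The upstream sequences were also alike, though not in quite the same groups as the transcripts. RefSeq promoter windows (GRCm38.p6, 250 bases before to 50 after the annotated start) were given for 7 of the 10 members. The 120 bases that end in a TATA box are shown for 5 of them, the end pair Mup3 and Mup21 and the central copies Mup2, Mup15 and Mup18, to let the shared part be seen. The capitals mark the letters TATATAA, and all are on the minus strand, at chr4:62087322-62087441 (Mup3), chr4:62150843-62150962 (Mup21), chr4:60139877-60139996 (Mup2), chr4:61439723-61439842 (Mup15) and chr4:61674116-61674235 (Mup18).
Mup3: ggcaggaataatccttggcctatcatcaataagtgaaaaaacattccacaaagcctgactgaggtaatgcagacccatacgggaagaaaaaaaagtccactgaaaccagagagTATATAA
Mup21: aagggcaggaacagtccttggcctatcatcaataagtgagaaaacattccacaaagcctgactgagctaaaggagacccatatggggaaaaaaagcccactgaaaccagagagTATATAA
Mup2: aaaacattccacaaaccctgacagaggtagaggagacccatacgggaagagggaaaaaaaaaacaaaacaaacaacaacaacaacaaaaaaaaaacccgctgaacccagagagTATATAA
Mup15: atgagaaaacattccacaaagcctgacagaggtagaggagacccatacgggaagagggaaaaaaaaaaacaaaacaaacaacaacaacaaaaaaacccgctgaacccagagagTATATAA
Mup18: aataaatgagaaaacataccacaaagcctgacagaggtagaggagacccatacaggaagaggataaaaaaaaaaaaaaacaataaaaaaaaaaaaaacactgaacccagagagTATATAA

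TATATAA, searched on both strands, occurred in 6 of the 7 member windows, Mup7 being the exception, and in 3.24% of all 32851 windows. The RefSeq starts lie downstream of the box in these 5 genes, while the GENCODE gene spans begin farther upstream. In Mup3, Mup21, Mup15 and Mup18 the last bases of the stretch therefore fall within the GENCODE span. In Mup2 the whole stretch does. The stretches of Mup3 and Mup21 were 92.3% identical over aligned bases, and those of Mup15 and Mup2 99.1%. The run CCAGAGAGTATATAA was common to all, and 11 windows in the whole table held it, each of a Mup gene. The letters TTCNNNGAA, the usual form of a STAT5 site, were in none of the 7 windows, against 8.30% of all windows. A wider form, with 4 bases between TTC and GAA, was in 2 of them (Mup7 and Mup11), against 6.95%. A match is a description and not a binding site, and these windows hold only the nearest bases.

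Summed over the 10 members, Mup RNA had a mean of 3475 ± 1154 CPM in WT (SD, n = 2) and 7520 ± 3297 CPM in HET (SD, n = 5). The level was 4291 CPM in WT 1 and 2659 in WT 2. In HET it was 7235, 11883, 8915, 6711 and 2855 CPM in HET 1 to HET 5. Of the HET livers, 4 lay above both WT livers and HET 5 lay between them, so the groups overlapped. Fitted with edgeR as a single row, the sum was 2.34-fold higher in HET (log2 fold change 1.23 ± 0.48, SE). These counts were 0.429% and 0.266% of all counts in WT and 0.285% to 1.19% in HET. In each liver 9 (HET 1 and HET 2) to 30 (HET 5) single genes had more counts than all rows with a Mup symbol together. Bulk RNA cannot tell fewer cells of a type from less RNA per cell, and this holds for every difference below.

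Mup3, a divergent copy that liver transcribes strongly, was the leading member in each liver except HET 4, where Mup18 led, and its difference between the genotypes was smaller than its error. Its level was 3434 CPM in WT 1 and 1888 in WT 2, and 4853, 6041, 3490, 1526 and 1283 CPM in HET 1 to HET 5. HET 4 and HET 5 lay below both WT livers and the other 3 HET above both, so the groups overlapped widely. The log2 fold change was 0.48 ± 0.67 (SE). It was 0.12 without WT 2, 0.15 without HET 2 and 1.08 without WT 1, so its size rests on single livers. With Mup3 left out, the other 9 members summed to 857 and 771 CPM in WT. In HET they summed to 2383, 5843, 5425, 5184 and 1572 CPM, all above both WT livers. That sum had a log2 fold change of 2.44 ± 0.55, against 1.23 with Mup3 in it.

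Mup21, the neighbour of Mup3 and its closest relative among the 10, had 290 CPM in WT 1 and 289 in WT 2. Its HET levels were 424, 780, 710, 1224 and 525 CPM, all above both WT livers (log2 fold change 1.43 ± 0.39). Mup21 was highest in HET 4, where Mup3 was among its lowest. Across the 7 livers the 2 neighbours had the weakest correlation of the 28 pairs of tested members, Pearson r = 0.06 (on log2 values, n = 7).

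Mup20 encodes darcin, the protein pheromone of male urine that makes females remember and prefer the scent of its owner. It had 122 CPM in WT 1 and 40.9 in WT 2, and 61.4, 166, 125, 90.7 and 48.0 CPM in HET 1 to HET 5. The HET livers spread over the whole range between the WT livers and beyond, and the log2 fold change of 0.46 ± 0.59 changed direction with the choice of WT liver. It was 1.47 without WT 1 and −0.21 without WT 2.

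Mup5, a divergent member first known from salivary and lachrymal glands, had 77.3 CPM in WT 1 and 46.7 in WT 2. It had 316, 590, 517, 563 and 182 CPM in HET 1 to HET 5, each above both WT livers. The log2 fold change was 2.97 ± 0.55, a 7.83-fold difference. It rests on 12 and 16 counts in the WT livers and 149 to 426 in HET.

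Mup18 was the most abundant of the near-identical central copies, which encode the bulk of the urinary isoforms. Its level was 122 CPM in WT 1 and 201 in WT 2. In HET it was 972, 2846, 2556, 2528 and 388 CPM. All 5 HET livers lay above both WT livers, HET 2, HET 3 and HET 4 close together and HET 5 nearest to WT. The log2 fold change was 3.62 ± 0.99, from 3.39 without HET 2 to 4.04 without WT 2.

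Mup11, another central copy, had 232 and 181 CPM in WT and 516, 1074, 1254, 589 and 377 CPM in HET. The groups did not overlap, and the log2 fold change was 2.02 ± 0.53. Mup15 had the largest fitted difference of the tested members. It had 1 count in WT 1 and 3 in WT 2 (6.44 and 8.76 CPM), and 41, 256, 94, 42 and 77 counts in HET 1 to HET 5 (76.3, 355, 206, 159 and 45.7 CPM). Its fitted log2 fold change was 4.50 ± 1.23. Pooling the livers of each group, the level of Mup15 was 17.3 times that of WT (95% exact interval 6.72 to 63.8, counting error only).

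Mup7 was near the limit of counting in WT, with 1 count in each liver, and had 7, 21, 25, 7 and 10 counts in HET 1 to HET 5. Its levels were 6.44 and 2.92 CPM in WT and 13.0, 29.1, 54.8, 26.4 and 5.93 CPM in HET, where only HET 5 overlapped WT. The pooled ratio was 4.75 (95% exact interval 1.27 to 40.0, counting error only). Mup1, whose protein has been tied to glucose and lipid metabolism, gave 1 count each in HET 1 and HET 4. Mup2 gave 1 count each in HET 1, HET 2 and HET 3. Both were at 0 in WT, where 3 counts over the group allow up to 6.03 CPM, so no fold is given. Neither gene has a 3′ word of its own.

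**Figure D2:**
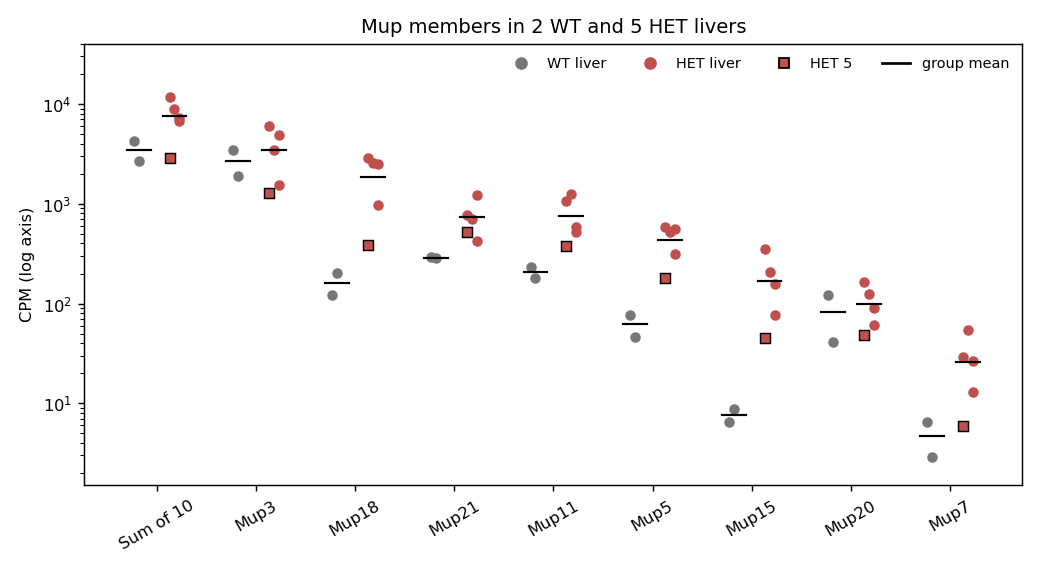
CPM (log axis) of the sum of the 10 members and of the 8 tested members in each liver; grey points are the 2 WT livers, red points the HET livers with HET 5 as a square, and bars group means. HET 5 is the lowest HET liver for the sum (2855 CPM) and for Mup3, Mup18, Mup11, Mup5, Mup15, Mup20 and Mup7, but not for Mup21.

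The filter on low counts passed 8 of the 10 members (not Mup1 and Mup2), and all 8 had fitted values above 0, with a median log2 fold change of 2.33 against 0.03 over the 4803 genes tested, 52.1% of which lay above 0. Mup7 and Mup15 passed through their HET livers, so a higher value there was built in. The CPM of 5 of the 8 (Mup5, Mup11, Mup15, Mup18 and Mup21) was higher in every HET liver than in both WT livers, as was that of 6.95% of all genes tested. Without WT 1 it was 7, with Mup7 and Mup20 added, beside 17.1% of all genes, and without HET 5 it was 6, beside 9.47%. It stayed 5 without WT 2 (22.4% of all genes), HET 1 (7.87%), HET 2 (7.83%), HET 3 (9.76%) or HET 4 (8.79%). With edgeR's quasi-likelihood test and adjustment over all genes, 0 members and 0% of all genes passed a threshold of 0.05 in either direction, and the lowest adjusted p of any gene was 0.0681. At an unadjusted p under 0.05, 5.39% of genes were higher and 4.96% lower in HET, 497 genes together. DESeq2 called 16 genes, 8 higher and 8 lower (0.167% each), and 4 of the higher were Mup5, Mup11, Mup15 and Mup18. Since the contrast had been seen when the members were picked, nothing is read from their share.

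**Figure D3:**
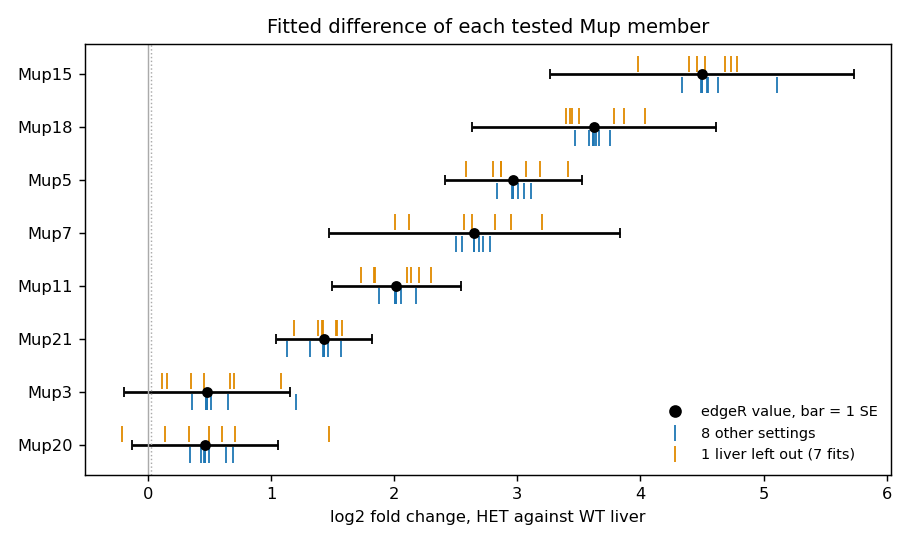
Fitted log2 fold change, HET against WT liver, of the 8 tested members (point, edgeR; bar, 1 SE), with the same value under 8 other settings (blue ticks) and with each of the 7 livers left out (orange ticks); the dotted line is the median of all tested genes, 0.03. Mup15, Mup18, Mup5, Mup7, Mup11 and Mup21 stay above 1 throughout, and Mup20 crosses 0 when WT 2 is left out.

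The make-up of the Mup RNA also differed between the livers. As a share of all counts with a Mup symbol (769 in WT 1 to 9350 in HET 2), Mup3 took 69.3% in WT 1 (95% Wilson interval 66.0 to 72.5) and 59.9% in WT 2 (57.0 to 62.8). It took 50.8% in HET 1 (49.4 to 52.1), 46.6% in HET 2 (45.6 to 47.6), 31.6% in HET 3 (30.3 to 32.9), 17.7% in HET 4 (16.2 to 19.3) and 38.8% in HET 5 (37.5 to 40.1). Every HET liver lay below both WT livers, HET 5 included, although its summed level lay between theirs. Mup18 went the other way, with 2.47% and 6.39% in WT and 10.2% to 29.3% in HET (means 4.43 ± 2.77, n = 2, and 19.3 ± 8.11, n = 5, SD). Mup5 took 1.52 ± 0.06% in WT and 4.92 ± 1.2% in HET, and Mup15 0.20 ± 0.10% and 1.72 ± 0.71%, again without overlap. The shares of Mup21 overlapped, at 5.85% and 9.17% in WT and 4.44% to 15.9% in HET. Those of Mup11 overlapped as well, at 4.68% and 5.74% in WT and 5.39% to 11.4% in HET. Mup12 had 2.99% and 5.19% in WT and 1.31% to 2.01% in HET, lower in every HET liver like Mup3. Mup20 had 2.47% and 1.30% in WT and 0.643% to 1.45% in HET, with overlap. Shares add to 100% within a liver, so lower shares of some genes and higher shares of others are not separate results.

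**Figure D4:**
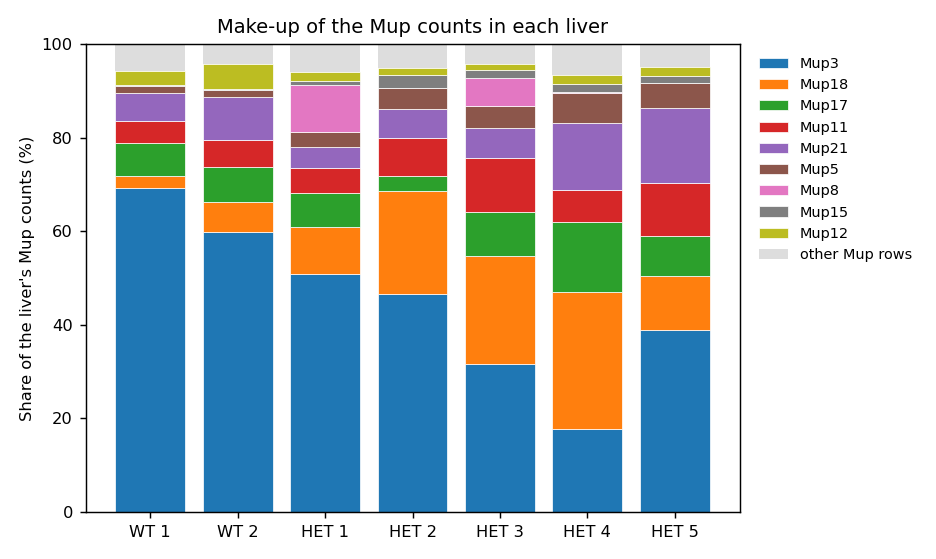
Percent of each liver's counts with a Mup symbol that belong to each gene, stacked to 100%, in the 2 WT and 5 HET livers. Mup3 fills 69.3% and 59.9% of the WT columns and 17.7% to 50.8% of the HET columns, and Mup8 is visible only in HET 1 and HET 3.

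The members also varied among the HET livers. The highest HET level was 2.88 times the lowest for Mup21, 3.24 for Mup5, 3.32 for Mup11, 3.46 for Mup20, 4.71 for Mup3, 7.33 for Mup18, 7.77 for Mup15 and 9.24 for Mup7. On log2 CPM the 28 pairs of tested members had Pearson r from 0.06 to 0.98 (median 0.81, n = 7 livers), and 23 were above 0.5. The closest pair was Mup15 and Mup18 (r = 0.98), followed by Mup5 and Mup15 (r = 0.97). Mup3 followed the sum of the other members least (r = 0.39), and Mup7 most (r = 0.90). Points in these correlations share their library and its scaling, copies share reads, and the genotypes differ, so they are given without p.

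Of the other 12 protein-coding Mup genes, 6 passed the filter, all with fitted values above 0. Of these, 2 (Mup8 and Mup16) were higher in every HET liver than in both WT livers, as were 6.95% of all genes tested. The 12 summed to 664 and 479 CPM in WT and 447 (HET 5) to 2302 in HET, so the groups overlapped. Mup17, the nearest other protein-coding Mup gene to Mup18, had 354 and 236 CPM in WT and 681, 406, 1037, 1292 and 279 CPM in HET, with HET 5 between the WT livers. Mup16 had 19.3 and 26.3 CPM in WT (3 and 9 counts) and 28.5 to 274 in HET, without overlap. Mup12 did not share the difference, with 148 and 163 CPM in WT, 66.4 to 197 in HET and a log2 fold change of 0.02 ± 0.41. Mup8 was the most uneven: it had 517 counts in HET 1 and 301 in HET 3 (962 and 660 CPM), 0 in both WT livers and 1 to 3 in the other 3 HET livers. Mup8 has no 3′ word of its own either, and it passed the filter through HET livers alone, so a higher value there was built in. The pseudogene Mup-ps15 likewise had 62 counts in HET 2, 19 in HET 4 and 0 in the other 5 livers. Over all 49 rows with a Mup symbol the sum was 4955 and 3152 CPM in WT and 3308 to 12960 in HET (log2 fold change 1.28 ± 0.46), close to that of the 10.

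In pancreas none of the 22 protein-coding Mup genes had a count in any of the 11 libraries, 3 WT, 5 HET and 3 HOM (OTUB2 -/-). With 3005022 counts in all, 0 counts allow up to 0.998 CPM over the 11 libraries together, and 2.26 to 60.6 CPM in a single one. The absence covers the depth of these libraries only.

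The growth hormone pathway is the known driver of the family, and its genes were measured beside it. Of 15 genes of the pathway and its targets, 11 were tested, 7 with values above 0 and 4 below (median log2 fold change 0.19), and 0 passed the threshold. Cish, a feedback inhibitor that STAT5 induces, had 38.7 and 29.2 CPM in WT and 37.3 to 94.5 in HET (log2 fold change 1.10 ± 0.50, edgeR adjusted p = 0.465). Igf1, the growth factor that growth hormone induces in liver, had 548 and 525 CPM in WT and 558 to 1123 in HET, higher in every HET liver, with its highest level in HET 5 (0.52 ± 0.30, adjusted p = 0.575). HET 5 was the liver with the lowest Mup level among HET. Onecut1, a transcription factor of liver, had 0 and 11.7 CPM in WT and 4.16 to 86.9 in HET (2.40 ± 1.09, adjusted p = 0.472). The receptor gene Ghr had 51.5 and 26.3 CPM in WT and 17.5 to 160 in HET (0.84 ± 0.83, adjusted p = 0.769), and Stat5b a log2 fold change of 0.03 ± 0.41 (adjusted p = 0.990).

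Of 15 transcription factors and receptors that act on Mup genes or on hepatocyte identity, 9 were tested, 7 above 0 and 2 below (median 0.27), and 0 passed. Hnf4a, a master factor of hepatocytes, had a log2 fold change of 0.01 ± 0.30 (adjusted p = 0.997, edgeR), Cebpa 0.34 ± 0.33 (adjusted p = 0.753), Foxa2 1.25 ± 1.06 (adjusted p = 0.720) and the glucocorticoid receptor gene Nr3c1 0.55 ± 0.58 (adjusted p = 0.779). Zhx2, a repressor of several liver genes, had 0 to 11 counts per liver and was not tested.

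Mup genes are higher in male liver, and the sex of these donors was not given. A list of 20 genes known to be higher in male liver had 15 tested genes, all 15 above 0 (median log2 fold change 1.17), and 8 of 15 had an unadjusted p under 0.05, against 5.39% of all genes. None passed after adjustment over all genes with edgeR. The list was chosen with earlier results of these data known, so its share is a description and no independent evidence. Hsd3b5, a steroid dehydrogenase found in male liver, had 77.3 and 26.3 CPM in WT and 108 to 278 in HET (2.00 ± 0.50, adjusted p = 0.219). The transporter gene Slco1a1 had 155 and 90.5 CPM in WT and 226 to 307 in HET (1.30 ± 0.34, adjusted p = 0.242). Serpina1e, a protease inhibitor gene, had 4375 and 5301 CPM in WT and 4439 to 15334 in HET (1.17 ± 0.39, adjusted p = 0.317), and Nudt7 232 and 126 CPM in WT and 237 to 703 in HET (1.18 ± 0.42, adjusted p = 0.364). The summed level of the 20 genes was 8615 and 8208 CPM in WT and 8758 to 23287 in HET, highest in HET 5, where the Mup sum was lowest among HET.

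Of 20 genes known to be higher in female liver, 13 had 0 counts in all 7 livers and 1 was tested. This was Cyp2a4, a cytochrome P450, with 25.8 and 137 CPM in WT and 14.9, 9.70, 4.38, 7.56 and 2.97 CPM in HET, lower in every HET liver (−3.41 ± 0.63, adjusted p = 0.0681, with edgeR). DESeq2 called it. Xist, the transcript of the inactive X chromosome in females, had 0 counts in all 7 livers. The Y-linked genes Ddx3y, Eif2s3y, Kdm5d and Uty together had counts in each liver, 12.9 and 11.7 CPM in WT and 6.52 to 18.6 in HET. None of these genes had more than 5 counts in a liver, and the level in WT 1 lies below the 19.3 CPM of 3 counts there. Whether sex or the timing of growth hormone pulses had a part in the Mup levels was not tested.

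Other secreted lipocalins, relatives of the Mup proteins outside the cluster, had 7 tested genes of 12 in the table, 6 above 0 and 1 below (median 0.61), and 0 passed. Orm1, an acute-phase carrier protein gene, had 1263 and 908 CPM in WT and 1199 to 5364 in HET (1.43 ± 0.63, edgeR adjusted p = 0.478). Rbp4, the carrier of retinol, had 5908 and 3036 CPM in WT and 3891 to 7667 in HET (0.35 ± 0.32, adjusted p = 0.734). C8g, a complement lipocalin gene, had a log2 fold change of 0.61 ± 0.31 (adjusted p = 0.515), and Orm2 2.16 ± 2.07 (adjusted p = 0.772), with 239 CPM in HET 3 against 6.52 to 58.2 in the other HET livers.

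Abundant secreted proteins of hepatocytes, 19 tested of 20, had a median log2 fold change of 0.15, with 13 above 0 and 6 below, and 0 passed. Their summed level was 241674 and 221098 CPM in WT and 213222 to 221935 in HET. Serpina3k, a protease inhibitor gene, stood highest in this list, with 5058 and 3377 CPM in WT and 8382 to 11889 in HET, all above both WT livers (1.28 ± 0.31, edgeR adjusted p = 0.186; called by DESeq2). Alb had a log2 fold change of 0.07 ± 0.40 (adjusted p = 0.968).

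**Figure D5:**
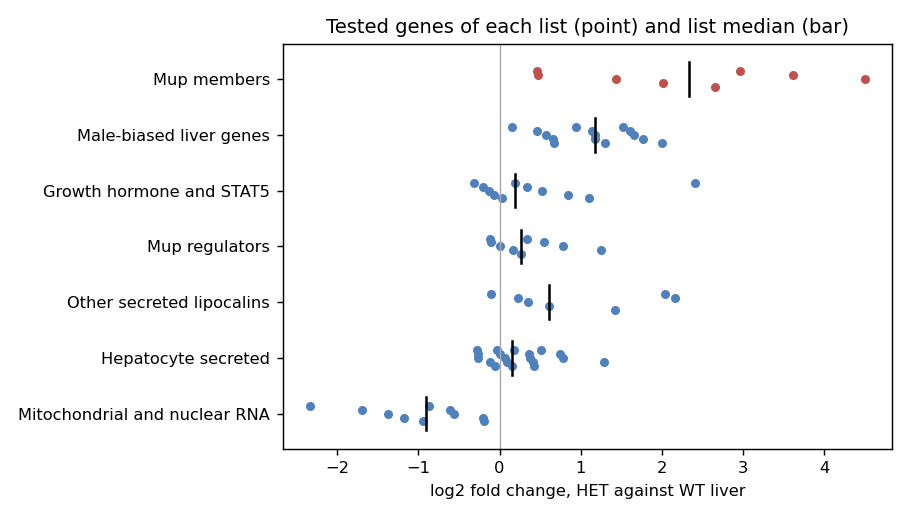
Fitted log2 fold change, HET against WT liver, of each tested gene (point) of 7 lists, with the list median (bar). The list named mitochondrial and nuclear RNA also holds the predicted gene Gm10800. The Mup members were selected on this contrast and 2 of them passed the filter through HET livers alone, so their median of 2.33 is not to be ranked against the others: male-biased liver genes 1.17, other secreted lipocalins 0.61, Mup regulators 0.27, growth hormone and STAT5 genes 0.19, abundant secreted proteins 0.15, and mitochondrial and nuclear RNA −0.91.

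Several other features differed between the livers, some of them alongside the genotype, and their part in the Mup levels was not tested. All 11 tested acute-phase genes had values above 0 (median 1.11, 0 passed). Their summed level was 14865 and 18400 CPM in WT and 8951 to 59590 in HET, where HET 2 and HET 3 were high. HET 1 (14022 CPM) and HET 5 lay below both WT livers and HET 4 (16021 CPM) between them. Of the 11 genes, 0 were without overlap between the genotypes. Saa1, a serum amyloid gene that inflammation induces, had 567 and 703 CPM in WT and 544, 4326, 8821, 510 and 77.1 CPM in HET 1 to HET 5. Saa1 was highest in HET 2 and HET 3 and lowest in HET 5. All 10 tested transcripts taken as signs of RNA quality had values below 0 (median −0.91). They were mitochondrial transcripts, the nuclear RNAs Malat1 and Neat1, and the predicted gene Gm10800. Of the 10, 7 were lower in every HET liver than in both WT livers, against 11.1% of all genes. This list too was chosen with earlier results of these data known, so its share is a description. The summed level of the 11 listed was 4729 and 6237 CPM in WT and 1408 to 3609 in HET. Gm10800 made up 1366 and 1944 CPM of this in WT, 854 to 1149 in HET 1 to HET 4 and 0 in HET 5. Malat1, a nuclear RNA, had 367 and 1635 CPM in WT and 140 to 250 in HET, where each liver lay below both WT livers (−2.33 ± 0.39, edgeR adjusted p = 0.0681). DESeq2 called Malat1, with an adjusted p of 0.000256.

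Markers of other cells were also counted. Kupffer cell markers, 6 tested of 10, had 1 value above 0 and 5 below (median −0.33), with sums of 767 and 773 CPM in WT and 369 to 768 in HET. Endothelial markers, 5 tested of 10, had 1 above and 4 below (median −0.43), with sums of 226 and 204 CPM in WT and 110 to 250 in HET. None of these 20 genes was at 0 in all livers. Csf1r (1 of the 6 tested Kupffer markers) and Stab1 (1 of the 5 tested endothelial markers) were lower in every HET liver than in both WT livers. So were 11.1% of all genes tested. Stellate cell markers (2 tested of 10, 1 above 0, 1 at 0 in all livers) summed to 90.2 and 61.3 CPM in WT and 37.3 to 68.9 in HET. Cholangiocyte markers (1 tested of 7, Spp1, log2 fold change 1.63, 1 at 0 in all livers) summed to 6.44 and 26.3 CPM in WT and 11.3 to 129 in HET. Blood cell genes (5 tested of 12, 2 above 0, 3 at 0 in all livers) summed to 4549 and 6710 CPM in WT and 1530 to 10848 in HET. Pancreatic acinar genes were at 0 in all livers for 7 of 12, and 1 was tested, Cela1, with 70.9 and 35.0 CPM in WT and 95.6 to 136 in HET, higher in every HET liver (1.25 ± 0.42, edgeR adjusted p = 0.317). No gene of these lists passed the threshold.

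Of 4616 genes that passed the filter, outside the Mup family and named by symbol rather than as predicted genes, those most like the Mup sum over the 7 livers were Gstp1 (Pearson r = 0.99), Rnf114 (0.98), Cyp2d10 (0.97), Ift20 (0.96) and Acadvl (0.95). The measure was the correlation of log2 CPM scaled by TMM. Gstp1, a glutathione transferase gene that is also on the male-biased list, had 213 and 155 CPM in WT and 244, 366, 316, 249 and 162 CPM in HET, so that HET 5 again lay between the WT livers. Rnf114, a ubiquitin ligase gene, had 110 and 99.2 CPM in WT and 143, 172, 153, 155 and 104 in HET. Their range was far narrower than that of the Mup sum. The most opposite were Prpf6 (r = −0.97), a splicing factor gene, R3hdm2 (−0.96), Zcchc14 (−0.95), Zmynd8 (−0.94) and Ap2m1 (−0.94). Prpf6 had 38.7 and 75.9 CPM in WT and 31.6, 19.4, 24.1, 34.0 and 53.4 CPM in HET. With 7 points and 4616 genes these correlations are a description with no p, and the points share library, scaling and genotype.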

How the data were processed

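RNA of 7 livers and 11 pancreata was read at the 3′ ends of transcripts with MARS-seq adapted to bulk samples, according to the protocols in the labels. Reads were handled with cutadapt and STAR on mm10, per the submitters' processing notes. The authors deposited a table of whole-number counts for each tissue, with genes as rows, which they call corrected without saying for what. Versions, the counting tool, the use of strand and the treatment of reads that fit several genes are not stated in the sources used here. Library totals ran from 155201 to 1686234 counts in liver, and 0 columns belonged to no sample.

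CPM were computed from these counts. The livers were compared (5 HET against 2 WT) with edgeR 4.0.16 (R 4.3.3). Genes were filtered with filterByExpr, libraries scaled by TMM, and a robust quasi-likelihood model of genotype fitted, with Benjamini-Hochberg adjustment over 4803 genes and a threshold of 0.05. The common dispersion was 0.125 (biological coefficient of variation 35.4%, 5 residual degrees of freedom). A standard error is the absolute log2 fold change divided by the square root of F. For sums, the rows were replaced by 1 row and the fit repeated. Correlations used log2 TMM-scaled CPM with a prior count of 2. Wilson and exact intervals are at 95% confidence and, with limits of 3 counts, cover counting error only. If molecular barcodes were not collapsed, the counts are not independent molecules.

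Gene positions and transcripts came from GENCODE M21 (mm10) and promoter windows from RefSeq (GRCm38.p6). Sequence identity was computed with Biopython 1.88.

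The members and all gene lists were chosen with earlier results of these data known, so the lists are no independent evidence. Named were all 10 members, other Mup genes with counts, up to 4 tested genes with the smallest p of each list, the 5 genes most like and the 5 most unlike the Mup sum, the sex chromosome genes, Saa1 and Alb. Stat5b, Hnf4a, Zhx2 and Otub2 were added after their values were seen, and some genes that the rule names are not reported here. Alternatives were DESeq2 1.42.0, its size factors in edgeR, scaling by total counts or without Mup rows, a filter at a mean of 10 CPM or none, a fit that was not robust, a block for the replicate number, and omission of each liver in turn.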

Additional observations from a re-analysis of the deposited data

Results flagged for a closer look

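Of 76 genes and sums looked at in the 5 HET livers, 8 had a single liver far from the other 4 (Dixon's test at 95%), and chance alone flags about 1 in 20. Among the Mup genes these were 3 of low count outside the 10 members. Mup4 had 31.9 CPM in HET 2, against at most 4.38 in the other HET livers. Mup19 had 25.0 CPM, also in HET 2, against at most 6.58. Mup10 had 56.7 CPM in HET 4, against at most 14.9. None of the 8 members looked at stood out in this way (Mup1 and Mup2, with at most 3 counts, were left out), nor did their sum.

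Among the other genes, HET 5 held the high value of 3: Ghr with 160 CPM (next 57.7), Nudt7 with 703 CPM (next 367) and Apoh with 2096 CPM (next 1048). Orm2 had 239 CPM in HET 3 (next 58.2), and Hbb-bs had 5642 CPM in HET 1 (next 1903).

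In pancreas, which the comparison of livers did not use, the pseudogene row Mup-ps13 had 14 counts in HET 15 and 0 in the other 10 libraries, while all protein-coding Mup genes were at 0 there.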

How the results depend on the processing

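The log2 fold change of the Mup sum stayed above 0 under all 17 alternatives (0.93 to 2.44, as reported 1.23), the highest being that of the 9 members other than Mup3, 2.44, a sum chosen after seeing the data. Leaving out 1 liver gave 0.93 to 1.66. Of the members, Mup5, Mup7, Mup11, Mup15, Mup18 and Mup21 kept values of at least 1.13 under all 15 alternatives, Mup3 ranged from 0.12 to 1.2, and Mup20 from −0.21 (without WT 2) to 1.47 (without WT 1). Counts of calls moved more. Genes called were 0 of 4803 with edgeR, 16 of 4802 with DESeq2, 57 of 18552 without a filter and 6 of 5823 with a mean of at least 10 CPM. With 1 HET liver left out they were 0 to 6 (1 of 4301 without HET 1, 6 of 4232 without HET 5). Members called were 4 of 8 with DESeq2 and 4 of 10 without a filter, and 0 to 2 with 1 HET liver left out (Mup5 and Mup18 without HET 5). Female-biased genes called were 1 (Cyp2a4) with DESeq2, without a filter and with a mean of at least 10 CPM, and 0 to 1 with 1 liver left out. Male-biased genes called were 1 with DESeq2 and 3 without a filter, and abundant secreted proteins 1 under each of these. For growth hormone and STAT5 genes, Mup regulators and other lipocalins 0 were called under every alternative. Scaling by total counts moved the median of all genes by −0.10. The fit without a filter moved it by 0.40, omission of WT 1 by 0.08 and omission of WT 2 by 0.11. Members and sums under these alternatives are to be read against those shifts. Members without overlap numbered 5 to 7 with 1 liver left out, where the share of all genes rose from 6.95% to between 7.83% (without HET 2) and 22.4% (without WT 2).

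With the replicate number as a block, a replicate block fit, 41 of 4803 genes and 4 of 8 members (Mup5, Mup11, Mup15 and Mup18) were called. WT and HET share only numbers 1 and 2, and each other HET liver stands alone under its number. The genotype difference in this fit therefore rests on the livers numbered 1 and 2. The labels do not say that a number marks a shared animal or day. The difference of WT 1 from WT 2 and that of HET 1 from HET 2 had a correlation of −0.04 over 4803 genes. As 1 pair of differences, it cannot show whether same-numbered livers share a day or batch. The causes of these differences were not tested. Depth limits Mup1, Mup2, Mup7 and Mup15, which had 0 to 3 counts in each WT liver.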
